A study of Mus musculus with 8 samples.

Results

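The 9 genes described here are classical markers of alternatively activated mouse macrophages together with the receptor chain and the transcription factor of the IL-4 pathway. They were taken by symbol from the raw count tables, 9 of 53735 genes listed, and all 9 were found. Mrc1 and Clec10a are lectin receptors of the macrophage surface, Chil3 and Retnla are effectors, and Ccl24, Ccl17 and Ccl22 are chemokines. Il4ra is the receptor chain and Stat6 the transcription factor that carries its signal.

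mRNA was sequenced from bone marrow derived macrophages (BMDMs) of 2 genotypes, Mkl1+/+, Apoe-/- (WT) and Mkl1-/-, Apoe-/- (KO). Donors were male mice, 6 months old, that had received angiotensin II (Ang II) from a minipump for 7 days, and their marrow was grown into macrophages over 7 days. There were 2 experiments of 2 WT and 2 KO libraries each, with WT 1, WT 2, KO 5 and KO 6 in experiment 1 and WT 3, WT 4, KO 7 and KO 8 in experiment 2. All 8 libraries therefore shared the loss of Apoe and the Ang II infusion, and no library without Ang II was analysed here. Mkl1 encodes a coactivator of serum response factor and was knocked out in the whole animal, not in macrophages alone, and the WT mice were littermates or came from sibling matings on the C57BL/6J background. The labels name no IL-4 or IL-13 added to the cultures, and they do not say whether each library was a separate mouse, so p-values measure the spread between libraries.

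IL-4 and IL-13 are the cytokines that drive alternative activation. Both bind receptors that contain the Il4ra chain, paired with the common gamma chain Il2rg or with Il13ra1, and Janus kinases on these chains phosphorylate Stat6, which enters the nucleus and activates genes such as Retnla, Chil3, Ccl17, Ccl22 and Ccl24. In resting marrow macrophages Il4ra and Stat6 are present before any cytokine is added, whereas the effector genes are known for their dependence on it.

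Total counts were 33977799 to 41584540 per library, so that 1 count was worth 0.0240 to 0.0293 CPM (counts per 1000000 counts of the library, here with TMM effective library sizes). Mkl1 itself was measured at 25.6 and 27.1 CPM in WT 1 and WT 2 against 19.5 and 20.9 in KO 5 and KO 6, and at 26.8 and 29.5 CPM in WT 3 and WT 4 against 14.6 and 10.4 in KO 7 and KO 8. Its level was lower in KO in both experiments (log2 fold change -0.41, SE 0.08, adjusted p = 0.00286 and -1.16, SE 0.19, adjusted p = 0.0228, edgeR quasi-likelihood test), and counts per gene do not show which exons the remaining reads came from. The call of experiment 1 was lost in a fit of 4 groups (-0.40, adjusted p = 0.0669; range 1.33e-05 to 0.0669), and over both experiments the fold change did not pass (-0.78, SE 0.19, adjusted p = 0.0574), although it did by DESeq2 (0.00296), with no filter (0.0379) and as the mean of 2 effects (0.00233), 3 of 16 alternatives (range 0.00233 to 0.162). The call of experiment 2 was lost without WT 3 (adjusted p = 0.0552), WT 4 (0.0563) or KO 8 (0.0755), in a range of 2.56e-05 to 0.0755 over the alternatives. All 10 macrophage markers examined, Adgre1, Cd68 and Csf1r among them, were detected, with a summed level of 15300 to 36100 CPM. Of these 10, 4 were lower and 4 higher in KO of experiment 1, against 28.4% and 28.2% of all genes, and 3 were lower and 2 higher in experiment 2, against 8.58% and 7.72%. Their sum was 26600 to 36100 CPM in WT and 18400 to 20300 CPM in KO of experiment 1, and 15300 to 21100 CPM in WT and 18300 to 25300 CPM in KO of experiment 2. Single markers went opposite ways: Adgre1, which encodes F4/80, was at -2.13 (adjusted p = 5.63e-06) and 0.91 (adjusted p = 0.0254) on the log2 scale in experiments 1 and 2, and Csf1r at 0.80 (adjusted p = 0.000901) and -1.27 (adjusted p = 0.0315, edgeR). Among other cell types, the summed fibroblast markers were 178 to 234 CPM in KO of experiment 1 and 2.18 to 12.1 CPM in the other groups.

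The 9 genes fell into 3 groups by level. Mrc1, Clec10a, Il4ra and Stat6 reached at least 10 counts in all 8 libraries. Ccl22 and Ccl24 reached 10 counts in 2 libraries only, Ccl22 in the WT libraries of experiment 2 and Ccl24 in the KO libraries of experiment 1. Chil3, Retnla and Ccl17 stayed below 10 counts in every library. Per kilobase of exon, Mrc1 was the most abundant member by median level (48.9 to 309 CPM per kb, median 105), followed by Stat6 (63.0 to 70.2, median 67.5), Il4ra (10.2 to 40.5, median 34.2) and Clec10a (1.25 to 12.3, median 1.97). The ranges of Mrc1 and Stat6 overlapped, and their order differed between libraries. Ccl22 did not exceed 2.20 CPM per kb in any library, and Ccl24, Ccl17, Chil3 and Retnla stayed at or below 0.289 CPM per kb.

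**Figure D1:**
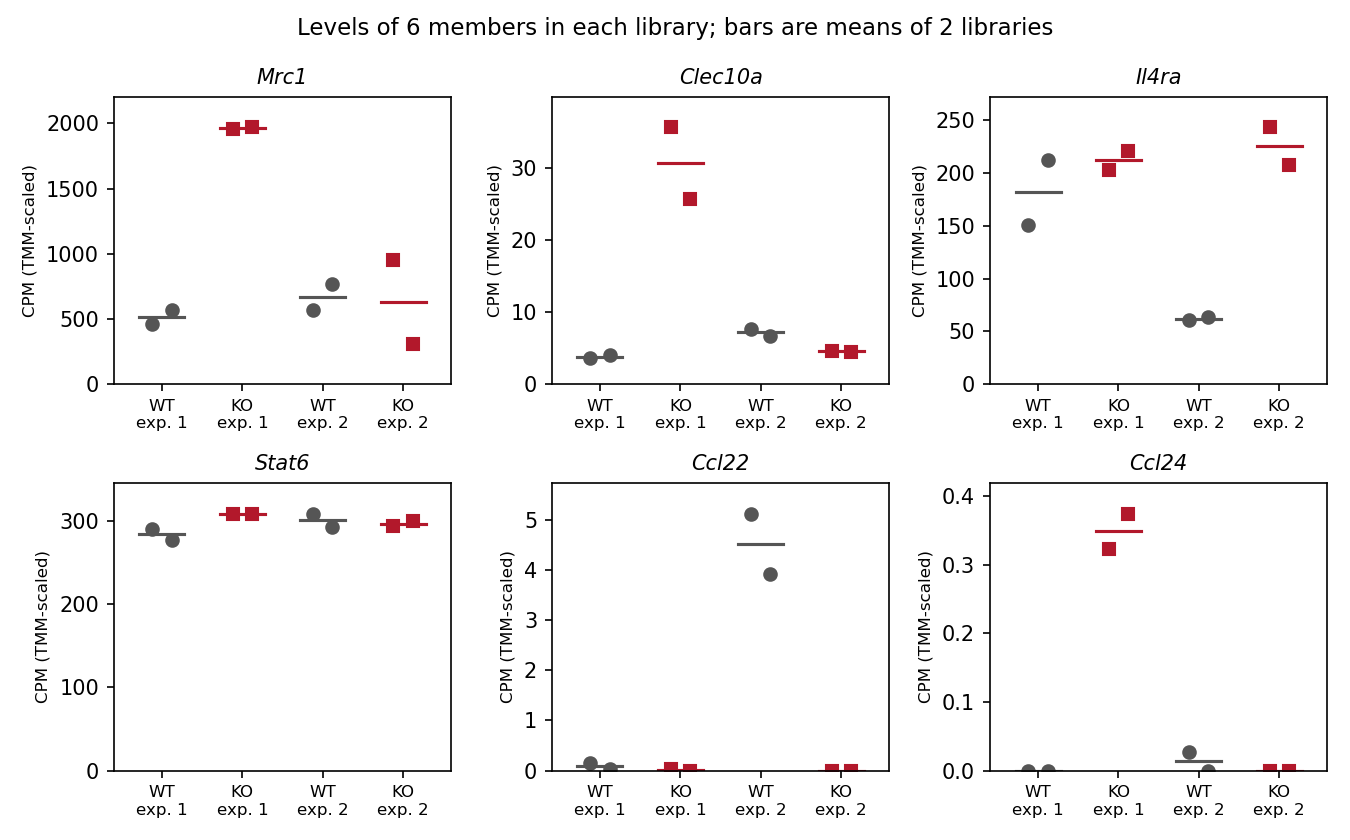
Levels of the 6 members that reached 10 counts in at least 1 library, in CPM on linear axes that start at 0 (1 panel per gene, each with its own scale), with 1 point per library and a bar at the mean of the 2 libraries of each genotype and experiment. Mrc1 and Clec10a stand out in KO of experiment 1 (1960 and 1970 CPM, 35.7 and 25.7 CPM), Il4ra is low in WT of experiment 2 (60.9 and 63.2 CPM), Ccl22 is seen there, and Stat6 stays between 277 and 309 CPM.

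Promoter sequence was available for 7 of the 9 genes, and 4 of these are shown because they hold the contrast in level within the axis: Mrc1 and Il4ra are abundant, while Ccl22 and Ccl17, whose starts lie 64.9 kb apart on chromosome 8, are at the lower end. The stretches are RefSeq sequence of GRCm38.p6, taken from the 250 bases before the RefSeq start and ended where the GENCODE M21 gene begins, on the + strand of each gene: chr2:14229164-14229391 for Mrc1, chr7:125552021-125552119 for Il4ra, chr8:94745434-94745589 for Ccl22 and chr8:94810203-94810452 for Ccl17. Capitals mark matches to the STAT6 site TTCNNNNGAA or to the ETS core GAGGAA, the motif of PU.1-type macrophage factors, on either strand (TTCCTC is GAGGAA read on the other strand).
Mrc1: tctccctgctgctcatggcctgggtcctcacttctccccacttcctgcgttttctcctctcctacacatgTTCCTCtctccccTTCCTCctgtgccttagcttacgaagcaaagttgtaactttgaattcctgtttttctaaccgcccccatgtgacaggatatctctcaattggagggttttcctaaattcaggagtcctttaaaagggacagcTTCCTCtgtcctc
Il4ra: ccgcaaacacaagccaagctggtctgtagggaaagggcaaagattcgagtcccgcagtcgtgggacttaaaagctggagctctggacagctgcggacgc
Ccl22: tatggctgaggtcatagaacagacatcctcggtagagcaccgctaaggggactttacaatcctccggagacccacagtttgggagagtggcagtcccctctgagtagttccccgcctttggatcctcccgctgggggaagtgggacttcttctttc
Ccl17: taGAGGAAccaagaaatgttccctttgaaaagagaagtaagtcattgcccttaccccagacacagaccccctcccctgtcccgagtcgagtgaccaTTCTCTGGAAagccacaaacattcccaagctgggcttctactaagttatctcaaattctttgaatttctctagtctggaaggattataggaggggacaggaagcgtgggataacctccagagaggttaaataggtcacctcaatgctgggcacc

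The STAT6 site was matched in Ccl17 at position -154 from the RefSeq start, and also in Retnla at -145, so in 2 of the 7 promoters, against 5.85% of 32851 mouse promoters of the same length. The ETS core was matched in 4 of 7, Ccl17, Mrc1, Retnla and Stat6, against 23.3% of promoters, with 3 matches in Mrc1 at -180, -167 and -35. The CArG box of serum response factor was matched in 0 of 7 and in 1.47% of promoters. These matches are letters in a window and were not measured as binding.

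Il4ra, the chain shared by both IL-4 receptor types (chr7:125552120-125579474, + strand, GRCm38), separated the groups in experiment 2. It was measured at 60.9 CPM in WT 3 and 63.2 in WT 4 against 243 in KO 7 and 207 in KO 8, so that both KO libraries lay above both WT libraries. The log2 fold change was 1.86 (SE 0.13, adjusted p = 0.00534, edgeR), a ratio of mean levels of 3.63, and it was called in each of the 12 alternative analyses of that comparison. In experiment 1 the levels were 151 CPM in WT 1 and 212 in WT 2 against 203 in KO 5 and 221 in KO 6. There the groups overlapped and the difference did not pass the test (log2 fold change 0.19, SE 0.18, adjusted p = 0.423). This value turned on the WT libraries: it was 0.46 (adjusted p = 0.00338) without WT 2 and -0.03 without WT 1, with adjusted p from 0.00338 to 0.799 over all alternatives.

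The KO levels of Il4ra were alike in the experiments, with a mean in experiment 1 that was 0.942 times that of experiment 2, while the WT mean of experiment 1 was 2.92 times that of experiment 2. WT 3 and WT 4 were thus the 2 low libraries out of 8. The genotype effect differed between the experiments (interaction on the log2 scale 1.65, SE 0.23, adjusted p = 0.00141). Averaged over both, with the experiment as a term, the log2 fold change was 1.04 (SE 0.35, adjusted p = 0.12), which did not pass. Il4ra is overlapped on the opposite strand by the antisense gene Gm44876, and the strand setting of the counting is not given in the sources used here, so reads of the pair cannot be told apart.

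Stat6 (chr10:127642986-127660957, + strand) was the most even member. It was measured at 291 and 277 CPM in WT 1 and WT 2 against 309 and 309 in KO 5 and KO 6, and at 309 and 293 CPM in WT 3 and WT 4 against 294 and 300 in KO 7 and KO 8. The whole span over 8 libraries was thus 277 to 309 CPM. The log2 fold change was 0.09 (SE 0.06, adjusted p = 0.216) in experiment 1 and -0.01 (SE 0.12, adjusted p = 0.958) in experiment 2, and the interaction was -0.12 (SE 0.11, adjusted p = 0.425, edgeR). With upper-quartile scaling the value of experiment 1 was 0.21 (adjusted p = 0.0174), the single alternative of 12 that called it (range of adjusted p 0.0174 to 0.547). An exon of Stat6 is overlapped by the gene Nab2 on the opposite strand, which had at most 1545 counts in a library.

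Mrc1, the mannose receptor CD206, carried the most reads of the 9 genes (chr2:14229392-14332057, + strand). In experiment 1 it was measured at 465 CPM in WT 1 and 571 in WT 2 against 1960 in KO 5 and 1970 in KO 6. The groups were far apart, and the KO mean was 3.79 times the WT mean (log2 fold change 1.89, SE 0.10, adjusted p = 7.72e-06, edgeR). In experiment 2 it was measured at 573 CPM in WT 3 and 770 in WT 4 against 954 in KO 7 and 312 in KO 8, the lowest and the highest values both being KO. The fold change of experiment 2 had no settled direction (log2 -0.08, SE 0.53, adjusted p = 0.933): it was 0.51 without KO 8, 0.15 without WT 4, and ranged from -1.10 to 0.51 over the 12 alternatives, none of which called it.

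For Mrc1 the 4 WT libraries spanned 465 to 770 CPM across experiments, and the KO mean of experiment 1 was 3.10 times the KO mean of experiment 2. The interaction was -1.99 (SE 0.61, adjusted p = 0.0348), meaning a lower genotype effect in experiment 2. It passed in 9 of 15 alternatives. It was lost without WT 1 (adjusted p = 0.115), WT 2 (0.0805), WT 4 (0.135), KO 5 (0.124) or KO 6 (0.122), in a range of 5.76e-29 to 0.135. Mir511 lies in an intron of Mrc1 on the same strand and had at most 15 counts.

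Clec10a, a galactose-type lectin also called CD301a (chr11:70156197-70170834, + strand), was some way lower in level. In experiment 1 it was measured at 3.61 CPM in WT 1 and 4.10 in WT 2 against 35.7 in KO 5 and 25.7 in KO 6. Both KO libraries were above both WT libraries, with a ratio of means of 7.96 (log2 fold change 2.96, SE 0.19, adjusted p = 5.64e-05, edgeR). In experiment 2 it was measured at 7.70 CPM in WT 3 and 6.72 in WT 4 against 4.68 in KO 7 and 4.53 in KO 8. Here the groups did not overlap either, with KO below WT, but the log2 fold change of -0.64 (SE 0.18, adjusted p = 0.0734) did not pass. A fit of all 4 groups called it (-0.65, adjusted p = 0.0286), the single alternative of 12 that did (range of adjusted p 0.0286 to 0.29).

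The genotype effect on Clec10a differed between the experiments (interaction -3.62, SE 0.25, adjusted p = 0.000138), in each of 15 alternatives. KO 5 and KO 6 were the 2 high libraries out of 8, and the other 6 lay between 3.61 and 7.70 CPM. The mean over both experiments was 1.18 on the log2 scale (SE 0.81, adjusted p = 0.415) and for Mrc1 it was 0.92 (SE 0.53, adjusted p = 0.332). Neither passed.

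Among the chemokines, Ccl22, a ligand of CCR4 that draws regulatory and TH2-type T cells (chr8:94745590-94751699, + strand), reached 10 counts in 1 group only. WT 3 had 187 counts and WT 4 had 136, while KO 7 and KO 8 had 0. In experiment 1 the counts were 6 and 1 in WT 1 and WT 2 against 1 and 0 in KO 5 and KO 6. In CPM the WT libraries of experiment 2 were at 5.12 and 3.91, and all others were at or below 0.147. Against a limit of 3 counts per library, Ccl22 was at least 62.3-fold lower in KO than in WT of experiment 2 (adjusted p = 0.00675, edgeR). Ccl22 entered that test only through the WT group in which it was high, and in experiment 1 it was too low to be tested.

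Ccl24, eotaxin-2, an attractant of eosinophils (chr5:135569937-135573049, - strand), reached 10 counts in a different group. KO 5 had 12 counts and KO 6 had 15, or 0.324 and 0.375 CPM, while WT 1 and WT 2 had 0. In experiment 2 WT 3 had 1 count and WT 4, KO 7 and KO 8 had 0. With the same limit Ccl24 was at least 4.32-fold higher in KO than in WT of experiment 1 (adjusted p = 0.00198, edgeR), and it likewise entered the test only through the group in which it was high. The interaction did not pass for Ccl22 (adjusted p = 0.0711) or Ccl24 (adjusted p = 0.0588). It did for Ccl22 in 3 of 13 alternatives (range of adjusted p 0.00559 to 1) and for Ccl24 in 1 of 13 (0.00492 to 1).

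Ccl17, the neighbour of Ccl22 and the other CCR4 ligand (chr8:94810453-94812036, + strand), had 3 counts in WT 3, 1 count in WT 4 and 0 in the other 6 libraries. Its 4 counts thus lay in the libraries in which Ccl22 was highest. They are too few to compare groups.

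The effector genes were at the edge of detection. Chil3, the chitinase-like protein Ym1 (chr3:106147554-106167564, - strand), had 11 counts, of which 8 were in WT 3, 1 in KO 5 and 2 in KO 6. It reached 10 counts in no library, and no difference between groups was detectable at this depth. Chil3 has the close paralog Chil4, between which reads may be split.

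Retnla, the secreted protein Fizz1 (chr16:48842551-48844461, + strand), had 0 counts in all 8 libraries. A count of 0 allows up to 3 counts, or 0.0719 to 0.0880 CPM per library, and 0.00981 CPM over the 305933320 counts of the 8 libraries together. These limits cover counting error only. In bulk libraries, fewer cells that express a gene and less RNA per cell cannot be told apart, which holds for every level given here.

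Counted over the members, 5 of 9 could be tested in experiment 1, of which 3 were higher in KO (Mrc1, Clec10a and Ccl24) and 0 were lower, at an adjusted p below 0.05. Over all genes tested in that experiment 28.2% were higher and 28.4% lower. In experiment 2, 5 could be tested, of which 1 was higher (Il4ra) and 1 lower (Ccl22), against 7.72% and 8.58% of all genes. The median log2 fold change of the tested members was 1.89 in experiment 1 and -0.08 in experiment 2, where it was 0.02 and 0.01 over all genes. As Ccl22 and Ccl24 passed the filter on low counts through 1 group, these counts and medians describe the members and support nothing further.

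With both experiments in one fit, 0 of 4 tested members were called by edgeR, against 3.72% of genes higher and 3.41% lower. At an unadjusted p below 0.05 it was 1, by DESeq2 1 (Il4ra, adjusted p = 0.0198, in a range of 0.000949 to 0.267 over the alternatives) and by limma-voom 0. The interaction was called for 3 of 6 tested members, Mrc1, Clec10a and Il4ra, against 39.8% of all genes tested, so that a differing genotype effect was common in the table as a whole. Mrc1 and Clec10a had the higher effect in experiment 1 and Il4ra in experiment 2.

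**Figure D2:**
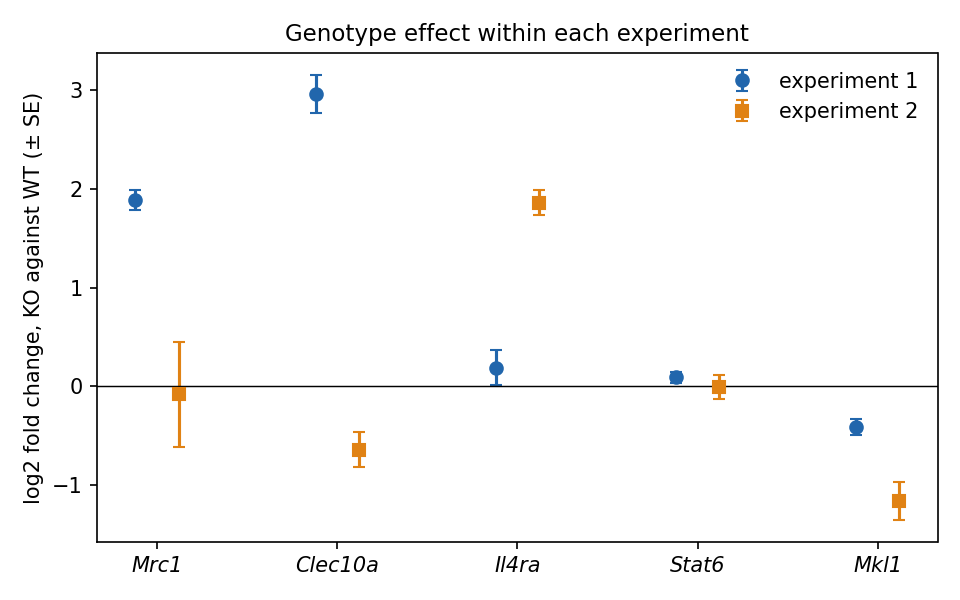
Log2 fold change of KO against WT within experiment 1 (circles) and experiment 2 (squares), with bars for the standard error (edgeR), for the 4 members with at least 10 counts in all 8 libraries and for Mkl1. Mrc1 and Clec10a lie at 1.89 and 2.96 in experiment 1 and at -0.08 and -0.64 in experiment 2, Il4ra at 0.19 and 1.86, Stat6 at 0.09 and -0.01, and Mkl1 at -0.41 and -1.16.

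Upper-quartile scaling moved the median of all genes in experiment 1 from 0.02 to 0.13 on the log2 scale. The split of calls then became 3248 lower and 5255 higher, from 4248 lower and 4225 higher, and that of both experiments together became 367 and 754, from 491 and 536. None of the called members changed direction under it.

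Around these genes, 14 other parts of the IL-4 signalling chain were listed: ligands, receptor chains, Janus kinases, adaptors and inhibitors. The ligands Il4 and Il13 and the decoy receptor Il13ra2 stayed below 10 counts in every library. Of the 11 tested, 3 were lower and 4 higher in KO of experiment 1, and 6 were lower and 1 higher in experiment 2. Over all genes tested the shares were 28.4% lower and 28.2% higher in experiment 1, and 8.58% and 7.72% in experiment 2. The median log2 fold change of the listed genes was -0.20 and -1.22. Irs1, with 9 and 21 counts in WT 1 and WT 2 against 209 and 168 in KO 5 and KO 6, passed the filter of experiment 1 through KO. These counts and medians thus describe the list and support nothing further. The genotype effect differed between the experiments for 8 of 11, against 39.8% of all genes. For 7 of the 8 it was lower in experiment 2.

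Il13ra1, which pairs with Il4ra in the type II receptor, changed in opposite directions. It was at 8.45 and 7.12 CPM in WT 1 and WT 2 against 21.7 and 20.8 in KO 5 and KO 6, and at 32.7 and 28.3 in WT 3 and WT 4 against 7.53 and 5.30 in KO 7 and KO 8. It rose by 1.41 (SE 0.11, adjusted p = 2.52e-05) on the log2 scale in experiment 1 and fell by 2.24 (SE 0.21, adjusted p = 0.00804, edgeR) in experiment 2. The high groups were those of KO in experiment 1 and WT in experiment 2. In experiment 2, then, Il4ra was higher and Il13ra1 lower in KO.

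Of the kinases, Jak3, which binds the common gamma chain, was at 9.66 and 12 CPM in WT 1 and WT 2 against 29.2 and 31.2 in KO 5 and KO 6 (log2 fold change 1.45, adjusted p = 2.79e-05). In experiment 2 it was at 18.8 and 12.9 against 24.3 and 13.9 CPM, with overlapping groups (0.28, adjusted p = 0.588, edgeR). Tyk2, which binds Il13ra1, rose in experiment 1, from 68.8 and 71.4 to 114 and 112 CPM (0.66, adjusted p = 3.90e-05), and fell in experiment 2, from 226 and 166 to 75.3 and 77.3 CPM (-1.36, adjusted p = 0.0145). Jak2 fell in both, from 83.2 and 79.8 to 62.9 and 63.9 CPM (-0.39, adjusted p = 0.000666) and from 277 and 208 to 76.9 and 84.7 CPM (-1.58, adjusted p = 0.0111), more so in experiment 2 (interaction -1.21, adjusted p = 0.00228). In experiment 2 the calls of Tyk2 and Jak2 were lost without KO 7 (adjusted p = 0.0652 and 0.0539) or KO 8 (0.0828 and 0.0683), the highest values over their alternatives. The call of Jak2 in experiment 1 was lost in a fit of 4 groups (-0.38, adjusted p = 0.0515; range 1.24e-08 to 0.0515). Il13ra1 was called in each of 12 alternatives in both experiments.

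Ptpn6, the phosphatase SHP-1 that restrains Janus kinase signalling, was the 1 gene of the list that edgeR called over both experiments (log2 fold change -0.72, SE 0.10, adjusted p = 0.0101). In that comparison 6 of the 11 had an unadjusted p below 0.05, DESeq2 called 5 and limma-voom 2. Over all genes edgeR called 3.41% lower and 3.72% higher there. Ptpn6 was at 740 and 708 CPM in WT 1 and WT 2 against 420 and 411 in KO 5 and KO 6. In experiment 2 it was at 932 and 827 in WT 3 and WT 4 against 522 and 601 in KO 7 and KO 8. All 4 KO libraries lay below all 4 WT libraries. Its fold change was -0.83 in experiment 1 (adjusted p = 2.09e-05) and -0.64 in experiment 2 (adjusted p = 0.0485), and the effects were not shown to differ (interaction 0.17, adjusted p = 0.409). The call of Ptpn6 in experiment 2 was lost without any 1 of the 4 libraries, with a log2 fold change of -0.75 to -0.54 over the alternatives. The call of both experiments was made in 12 of 16 alternatives (range of adjusted p 5.95e-13 to 0.146). It was lost without WT 1 (0.0556) or KO 5 (0.0567), and 0.0101 does not pass the stricter threshold of 0.01.

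A further 22 genes used as alternative activation markers were listed, of which 21 were found by symbol and 18 tested. In experiment 1, 5 were lower and 8 higher in KO, against 28.4% and 28.2% of all genes, and in experiment 2, 5 were lower and 2 higher, against 8.58% and 7.72%. The medians were 0.79 and -0.71 on the log2 scale, and the range was -2 to 5.34 and -2.95 to 3.01. Mgl2 and Alox15 passed the filter on low counts through 1 group in each experiment. These counts and medians thus describe the list and support nothing further. Over both experiments 0 of 18 were called by edgeR, with 3 at an unadjusted p below 0.05, 3 by DESeq2 and 0 by limma-voom, where 3.41% of all genes were lower and 3.72% higher. The interaction was called for 12 of 19, against 39.8% of all genes.

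Mgl2, the closest paralog of Clec10a, with which it may share reads, was at 0.0983 and 0.0293 CPM in WT 1 and WT 2 against 3.16 and 2.62 in KO 5 and KO 6 (fitted log2 fold change 5.34, adjusted p = 2.28e-05, edgeR). With 4 and 1 counts in these WT libraries, Mgl2 entered the test of experiment 1 only through the KO group in which it was high. Its fitted value there was 6.44 without WT 1 and 4.8 without WT 2. In experiment 2 it was at 1.84 and 0.833 CPM in WT 3 and WT 4 against 0.244 and 0.0959 in KO 7 and KO 8 (-2.95, adjusted p = 0.0384). With 10 and 4 counts in these KO libraries it entered that test through the WT group, so both values describe it and support nothing further. Like Clec10a it was highest in KO of experiment 1. Matk, a Csk-related kinase, and Clec7a, the beta-glucan receptor Dectin-1, were higher in KO of experiment 1 and lower in KO of experiment 2, by 4.08 (adjusted p = 1.74e-06) and 1.48 (adjusted p = 8.38e-05) in experiment 1 and by -2.09 (adjusted p = 0.044) and -2.42 (adjusted p = 0.0135) in experiment 2. In experiment 2 these calls rested on single libraries: Matk was lost without any 1 of the 4 (adjusted p 0.0642 to 0.145), Mgl2 without WT 3 (0.114), KO 7 (0.0909) or KO 8 (0.162), and Clec7a without KO 8 (0.0801).

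Klf4 and Cd36 had the opposite order. Klf4, a transcription factor that acts with Stat6, was at 33.6 and 28.7 CPM in WT 1 and WT 2 against 14.1 and 15.7 in KO 5 and KO 6 (log2 fold change -1.09, adjusted p = 6.20e-05, edgeR). In experiment 2 it was at 3.81 and 4.28 CPM in WT 3 and WT 4 against 28.3 and 36.7 in KO 7 and KO 8 (3.01, adjusted p = 0.00461). WT 3 and WT 4 were the lowest libraries for Klf4, as they were for Il4ra.

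Cd36, a scavenger receptor, was at 2390 and 2710 CPM in WT 1 and WT 2 against 683 and 615 in KO 5 and KO 6 (log2 fold change -2, adjusted p = 2.43e-06, edgeR). In experiment 2 it was at 556 and 1230 CPM in WT 3 and WT 4 against 1970 and 1940 in KO 7 and KO 8 (1.14, adjusted p = 0.111), which did not pass. The value was 0.67 without WT 3 (adjusted p = 0.15) and 1.82 without WT 4 (adjusted p = 0.0129), and it also passed by DESeq2 (0.00688) and in a fit of 4 groups (0.028), 3 of 12 alternatives in all (range 0.00688 to 0.329). Tgm2, a transglutaminase, fell in both, by 0.22 (adjusted p = 0.0135) and by 0.91 (adjusted p = 0.0356) on the log2 scale. In experiment 1 its value was -0.10 with upper-quartile scaling (adjusted p = 0.174), its call was lost in a fit of 4 groups (0.289) and without WT 1 (0.0769) or KO 6 (0.059), and 7 of 12 alternatives called it (range of adjusted p 0.00121 to 0.289). In experiment 2 the call was lost without WT 3 (0.112), KO 7 (0.0617) or KO 8 (0.135).

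**Figure D3:**
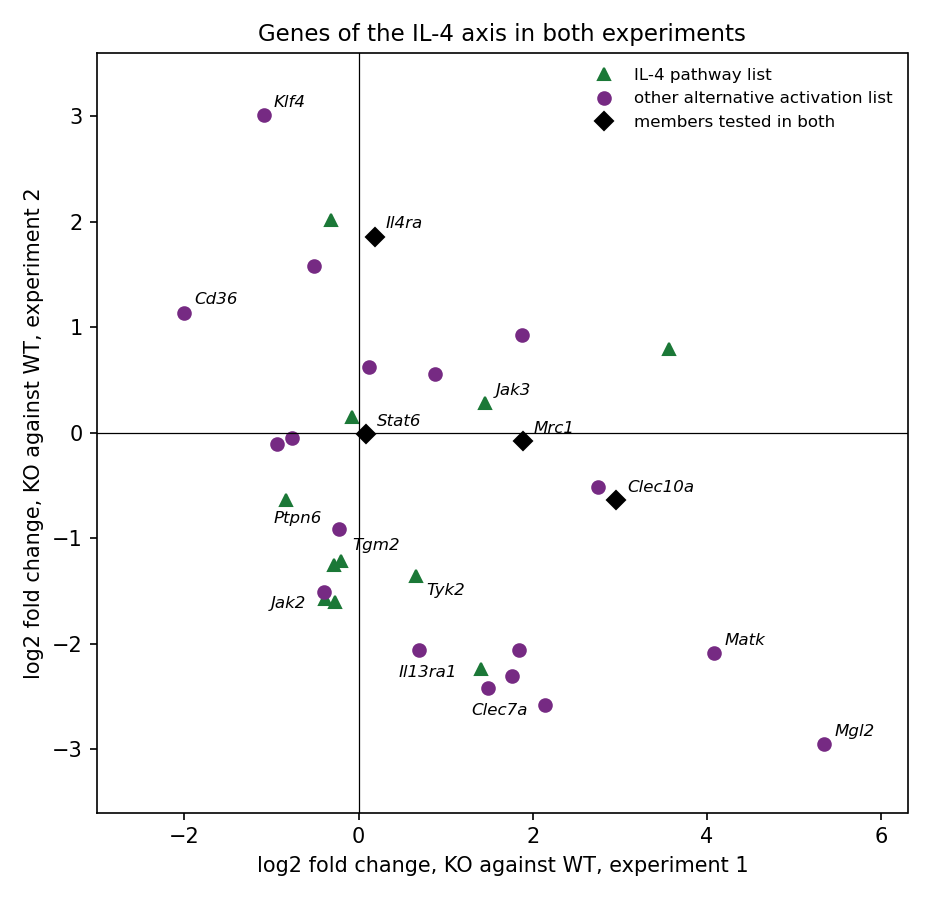
Log2 fold change of KO against WT in experiment 2 (vertical axis) against that in experiment 1 (horizontal axis), 1 point per gene tested in both: 4 members, the IL-4 pathway list and the other alternative activation markers. Mgl2, Matk, Clec7a, Il13ra1 and Tyk2 lie to the lower right and Klf4 to the upper left.

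Summed markers of other cells differed between the groups, and the members did not all follow them. The dendritic cell list summed to 45.1 to 48.2 CPM in KO and 7.25 to 8.41 CPM in WT of experiment 1, and to 5.02 to 5.78 CPM in KO and 54.7 to 66.0 CPM in WT of experiment 2. Its members did not move together: of 6 tested in experiment 1, 3 were higher in KO (Itgax, Ciita and Kmo), 1 was lower (Batf3, -2.23, adjusted p = 0.000365, edgeR) and 2 were not called, and of 5 tested in experiment 2, 2 were lower (Itgax and Ciita) and 3 were not called, Batf3 at 2.86 (adjusted p = 0.0511) among them. Over all genes 28.2% were higher and 28.4% lower in experiment 1, and 7.72% and 8.58% in experiment 2. Ciita (8 and 12 counts in WT 1 and WT 2) and Kmo (8 and 5) passed the filter of experiment 1 through KO. In experiment 2 Ciita (11 and 3 counts in KO 7 and KO 8) passed it through WT. These counts of calls thus describe the list and support nothing further. Itgax and Ciita made up most of the sum in the high groups, and Batf3 was the most abundant of the list in WT 2, KO 7 and KO 8, at 4.49, 1.68 and 3.67 CPM. Zbtb46 was at 0.341 to 0.657 CPM throughout, and Flt3, Cd209a and Ccr7 were below 10 counts in every library. Ccl22 was high in a group in which the dendritic sum was high, and Mgl2, Matk and Il13ra1 were higher in both such groups. Ccl22 had 1 and 0 counts in the other such group, KO of experiment 1. Il4ra was lowest in WT of experiment 2, at 60.9 and 63.2 CPM, where the dendritic sum was high. The fibroblast sum was high only in KO of experiment 1, the group with the highest Mrc1, Clec10a and Ccl24. Of 9 fibroblast genes 7 were tested there and 7 were higher in KO, against 28.2% of all genes. Pdgfra (7 and 17 counts in WT 1 and WT 2) and Col3a1 (9 and 34) passed the filter through the KO group. This count thus describes the list and supports nothing further. The part of these cells in the results was not tested.

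Neutrophil markers summed to at most 1.52 CPM, with 8 of 9 below 10 counts in every library and Retnlg at 0. Eosinophil, basophil and mast cell markers summed to 2.87 to 3.82 CPM in KO of experiment 1 and at most 1.47 CPM elsewhere, with Epx and Fcer1a at 0. Mcpt8, a basophil protease, had 43 and 51 counts in KO 5 and KO 6 and 0 in the other 6 libraries, the group in which Ccl24 was seen at 0.324 and 0.375 CPM. T cell markers summed to at most 2.87 CPM, with Cd3e at 0. The part of these cells in the levels of the members was not tested.

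**Figure D4:**
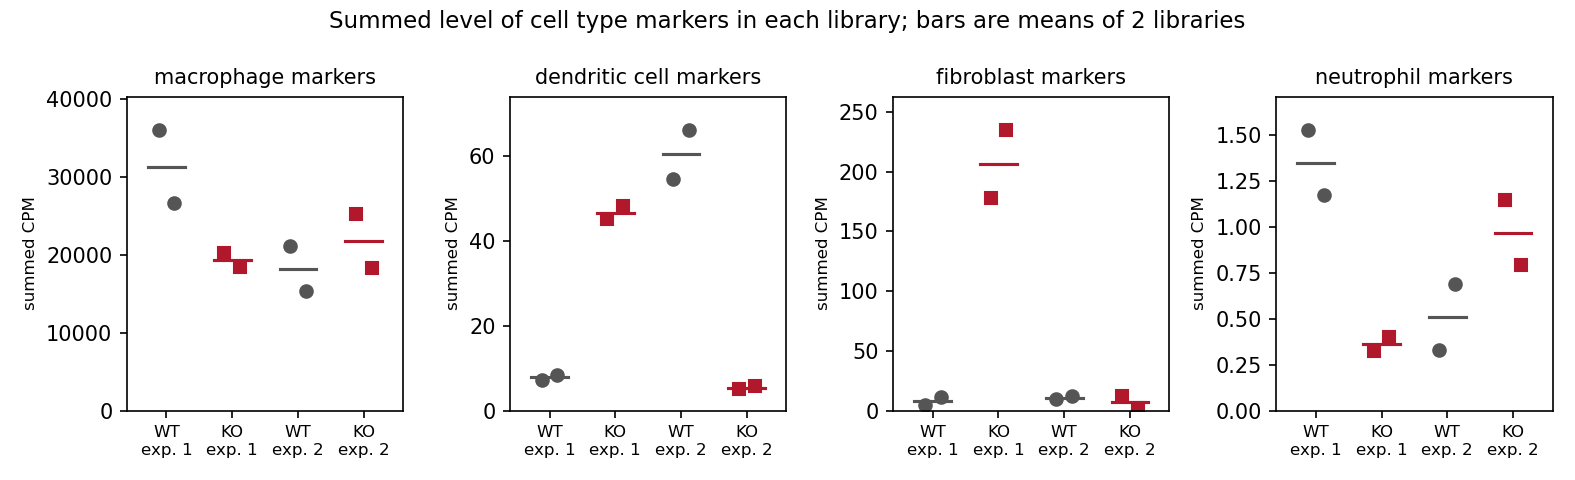
Summed CPM of the macrophage, dendritic cell, fibroblast and neutrophil marker lists on linear axes that start at 0, with 1 point per library and a bar at the mean of the 2 libraries of each genotype and experiment. Fibroblast markers reach 178 and 234 CPM in KO of experiment 1 only, and the dendritic list is high in KO of experiment 1 and WT of experiment 2.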

How the data were processed

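Poly(A) mRNA of BMDMs was made into libraries with a stranded kit. Per the submitters' processing notes, reads were aligned to GRCm38 with STAR 2.7.0f, counted with featureCounts (Subread 1.6.4) and compared with DESeq2 1.22.1, each batch on its own. The annotation and strand setting are not given in the sources used here. The authors deposited raw counts per gene, and a table of counts divided by size factors (a signal scaled per library), from which size factors of 0.891 to 1.09 were derived and which was not tested.

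Here the raw counts were tested with edgeR 4.0.16 (R 4.3.3): TMM (factors 0.930 to 1.05), filterByExpr by the groups of each fit, and the quasi-likelihood F test, with Benjamini-Hochberg adjustment over all genes tested (14976 in experiment 1, 14567 in experiment 2, 14418 in both, 15618 for the interaction) and a threshold of 0.05. This filter was chosen after the counts were seen, since filtering by genotype over 8 libraries leaves out Ccl22 and Ccl24. The combined fit had the experiment as a term. DESeq2 1.42.0, limma-voom (limma 3.58.1), other filters and scalings, and leaving out each library were alternatives. The tests were checked on simulated counts. CPM used TMM effective library sizes, and lengths were union exons of GENCODE M21. A limit of 3 counts per library stood for 0 in bounds on ratios. Values are per library, and intervals from counts cover counting error only.

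The members and gene lists were chosen with earlier results of these data known. An item of the set is not reported here. Besides the members and Mkl1, the text names from the pathway list and the marker list the 3 tested genes of lowest p in each experiment; the other genes appear as counts. Some named genes fall outside that rule and were named after their values were seen. These are the marker genes named with the cell type sums, Il2rg and the paralog Chil4. They also include Il4, Il13 and Il13ra2, named for their low counts, and Irs1 and Alox15, named for how they passed the filter.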

Additional observations from a re-analysis of the deposited data

Results flagged for a closer look

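The effect of genotype in experiment 2 minus that in experiment 1 passed the interaction test for 3 members, at -1.99 on the log2 scale for Mrc1, -3.62 for Clec10a and 1.65 for Il4ra. Among the genes of the IL-4 pathway described by name it passed for Il13ra1 (-3.68), Tyk2 (-2.03), Jak2 (-1.21) and Jak3 (-1.19). It passed for 8 of the 11 tested on that list, of which 7 had the lower effect in experiment 2 and 1 the higher. Of all genes tested it passed for 39.8%, and of the tested members for 3 of 6, which is near that share. Among the other alternative activation markers named it passed for Mgl2 (-8.32), Matk (-6.19), Clec7a (-3.92) and Tgm2 (-0.71), each with the lower effect in experiment 2, and for Klf4 (4.09) and Cd36 (3.12), with the higher effect there. For Mgl2 the WT libraries of experiment 1 were at 0.0983 and 0.0293 CPM, so the size of its difference rests on few counts. Mgl2 also passed the filter through the groups in which it was high. Its interaction, here and with a library left out, thus describes it and supports nothing further. The interaction was lost when 1 of several libraries was left out for Mrc1 (adjusted p up to 0.135), Jak3 (up to 0.137) and Tgm2 (up to 0.0949), and it passed in every such analysis for the other 10 genes.

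Of the 4 WT libraries, WT 3 stood apart for Ccl24, and of the 4 KO libraries, KO 5 stood apart for Ccl22. In both cases the library held 1 count and the other 3 held 0, which gives a gap to the nearest library divided by the whole range of 1.0, past the critical value of Dixon's test for 4 libraries. A single count against zeros gives that ratio by construction, so the chance level of about 1 in 20 groups, which is for continuous values, does not hold here. The count is also below the limit of 3 that a count of 0 allows.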

How the results depend on the processing

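Over 266 values of the members under the alternatives, 244 kept their direction and their side of the threshold, 6 lost and 10 gained a call, and 6 changed sign; the sign changes were in differences that did not pass. These were Il4ra in experiment 1 without WT 1 (-0.03, with leave-one-out values up to 0.46), Mrc1 in experiment 2 without WT 4 (0.15) or KO 8 (0.51, and down to -1.1 without KO 7), and Stat6 in experiment 2 with upper-quartile scaling (0.04), without WT 3 (0.02) or without KO 7 (0, and down to -0.05 without WT 4). Outside the members, Jak3 in experiment 2 was -0.18 without KO 7 and 0.63 without KO 8.

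In experiment 2, 2 members were called, and 1 where 10 counts were required in every library or genes were filtered by genotype over 8 libraries (the latter chosen after seeing the data), because Ccl22 was then not tested. Over all genes 2375 were called, 235 at an adjusted p below 0.01, 4955 in a fit of 4 groups, and 238 (without KO 8) to 1429 (without WT 4) with a library left out. In both experiments together 1027 genes were called, 2492 by DESeq2, 208 at 0.01, 4 with no experiment term, 4811 as the mean of 2 effects, and 243 (without WT 1) to 1100 (without KO 8) with a library left out. Of the members 0 were called, 1 by DESeq2, 1 with no filter, and 2 (Il4ra and Clec10a) as the mean of 2 effects. For the interaction 6217 genes were called and 3372 at 0.01, and 3 members, or 5 by limma-voom, which added Ccl22 and Ccl24. The causes of these shifts were not tested, apart from the tests on fewer genes. With 2 libraries a group, leaving 1 out assumes that the lone library varies like the others. No paired analysis was possible because the labels do not say which WT and KO libraries belong together.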
